A study of Mus musculus with 8 samples.

Results

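Cholesterol and fatty acids are both built from acetyl-CoA, and the enzymes that build them were followed here as 32 genes in 4 mouse fibrosarcoma cell lines. The members were taken by name from a list of the mevalonate steps, the steps from squalene to cholesterol, regulators and a sterol transfer protein, and the enzymes that make, desaturate and elongate fatty acids. All 32 were among the 18768 genes of the deposited count table, and all 32 passed the filter on low counts with 15153 genes in total. RNA sequencing covered 8 libraries, 2 per line. The lines MC010 and MC011, which are labelled IRF8 KO, grew out of tumors of IRF8 knock-out mice. MC654 and MC659, labelled WT, grew out of tumors of wild-type C57BL/6 mice. In all 4 cases the tumor was induced by subcutaneous methylcholanthrene, a chemical carcinogen, in peanut oil. The dissociated tumor cells were passaged 10 times or more, and no further treatment before RNA isolation is named. The paper gives a serum-containing medium for its cell death assays and names none for the passages. Age and sex of the mice are not given in the labels.

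Each line came from one tumor, so a difference between labels rests on 2 lines against 2 lines. The p-values of comparisons between lines measure only the spread between libraries of a line, and none between tumors. The fit by label uses the spread over the 4 libraries of a label, differences between its lines included. It takes the 2 libraries of a line as independent. Their correlation was 0.83 in limma-voom with line as random block, so the p-values by label are too small. The libraries held 74063616 to 116206078 counts. Levels are given as CPM, counts scaled by library size, and 3 counts, taken as the floor, corresponded to between 0.0262 and 0.0408 CPM. Irf8, the targeted gene, had more RNA under the IRF8 KO label. It had 3.86 and 4.72 CPM in MC010, 0.332 and 0.127 CPM in MC011, and 0 to 0.0235 CPM in the 4 libraries labelled WT, which lie under the floor. The paper genotyped the 4 lines by PCR and reports MC010 and MC011 as IRF8 KO, MC654 and MC659 as WT. Counts per gene do not tell RNA of a disrupted allele from intact Irf8 RNA. Directions are therefore given by label or line, as "the lines labelled IRF8 KO" and "the lines labelled WT", and not as an effect of IRF8. Vim, which encodes vimentin, a mesenchymal marker, had 4532 to 7384 CPM in all 8 libraries. Of the 8 listed mesenchymal markers 2 were called higher under the IRF8 KO label and 1 lower, and the list summed to 9509 to 10451 CPM under that label and 14401 to 16146 CPM under the WT label. The genes called higher were Thy1, high in MC011 alone (log2 1.93), and S100a4 (log2 2.17). The gene called lower was Fn1, fibronectin, at 1142 to 2112 CPM and 7779 to 8132 CPM, and the lower sum rests on it. Vim went the other way, at 5240 to 7384 CPM under the IRF8 KO label and 4532 to 4900 CPM under the WT label. Fabp4, the one fat cell marker of 5 in the list that was in the table, had at most 0.192 CPM, and Ptprc, the pan-leukocyte marker, at most 0.177 CPM. The macrophage markers Cd68 and Csf1r had 5.25 to 10.1 CPM and 0.245 to 1.80 CPM. Of the 6 hematopoietic markers listed 4 were in the table and 2 were tested, of which Csf1r was called lower under the IRF8 KO label, and the list summed to 5.72 to 7.38 CPM under it and 9.67 to 11.5 CPM under the WT label. The part of these markers in the members' differences was not tested. In bulk RNA, fewer cells of a kind and less RNA per cell cannot be told apart.

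In animal cells the sterol regulatory element binding proteins SREBP1 and SREBP2, encoded by Srebf1 and Srebf2, switch on the genes of both pathways. SREBP2 acts mainly on sterol genes and SREBP1 mainly on fatty acid genes. When sterols are plentiful, INSIG proteins hold the precursors of SREBP in the endoplasmic reticulum. When sterols are scarce, the precursors are cleaved and enter the nucleus, where they bind sterol regulatory elements together with the factors NF-Y, which binds CCAAT boxes, and SP1, which binds GC boxes.

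The promoters of these genes were read for such letters after the sterol enzymes had been seen to move together between lines. Whether the letters go with these differences was not tested. RefSeq promoters (GRCm38.p6), searched over the 250 bases before the start on both strands, were in the reference table for 25 of the 32 members and 31 start sites. Fdps, Fdft1, Sqle, Scd1, Scd2, Fads1 and Stard4 had no entry. CCAAT was in 21 of the 31 member promoters, a share of 67.7%, and in 33.8% of all 32851 promoters. Those 32851 were not limited to genes expressed in these lines. All 12 mevalonate and sterol enzymes with an entry had CCAAT in at least 1 promoter, in 12 of their 15 promoters, or 80.0%. The fatty acid, desaturase and elongase genes had it in 5 of 11 promoters, or 45.5%. The regulator genes had it in 4 of 5 promoters, or 80.0%. The letters GGGCGG, a GC box, were in 71.0% of member promoters and 32.7% of all promoters. The sterol regulatory element letters TCACNCCAC were in 1 member promoter, that of Hmgcs1, and in 1.05% of all promoters. The shorter form CACCCCAC, which overlaps the longer one in Hmgcs1, was there and in Elovl7, and in 2.58% of all promoters. The E-box letters CACGTG, which are their own reverse complement, were in 5 member promoters, those of Elovl5, Insig1, Dhcr7, Hsd17b7 and Sc5d, and in 6.02% of all promoters. Some genes have several start sites that share bases, and a match of letters is a description, not a bound site.

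**Figure D1:**
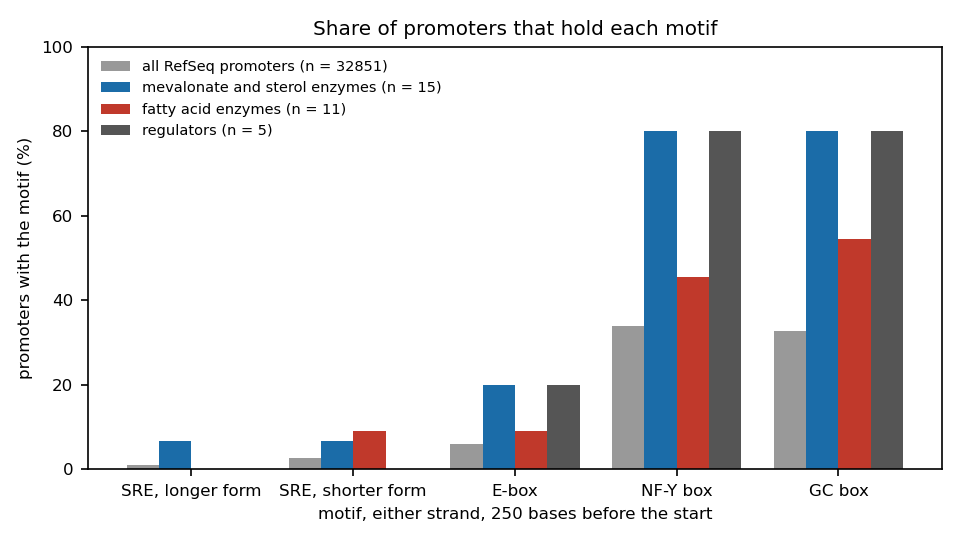
Bars give the percent of promoters that hold each motif on either strand, over the 250 bases before the start, for all RefSeq promoters and for the members by role. The NF-Y box (CCAAT) was in 80.0% of the mevalonate and sterol enzyme promoters and of the regulator promoters. It was in 45.5% of those of the fatty acid enzymes and 33.8% of all promoters.

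Windows of 5 members are printed, 4 sterol pathway enzymes that were higher in MC010 than in MC011 and Fasn. Fasn was higher in MC010 too, at log2 0.37 (edgeR adjusted p = 9.59e-05), but did not pass the fold threshold. Its window also holds CCAAT, at 3 places, so the boxes do not set it apart from the others. The windows overlap no exon in GENCODE M21. Bases downstream of the start were found in a GENCODE M21 transcript of the gene for Mvk, Mvd and Fasn, but not for Hmgcs1 and Sc5d. Distances for Hmgcs1 and Sc5d therefore hold for the RefSeq start only. Capitals mark CCAAT in either orientation (ATTGG on the other strand) and, in Hmgcs1, the 9 letters of the sterol regulatory element. The Hmgcs1 window is chr13:119690101-119690350 on the plus strand and holds the element 137 bases before the start, between CCAAT boxes that begin 176 and 45 bases before it. The other windows are the last 100 bases before the start, Mvk at chr5:114444169-114444268 on the plus strand, and on the minus strand Mvd at chr8:122443423-122443522, Sc5d at chr9:42264301-42264400 and Fasn at chr11:120824548-120824647.
Hmgcs1: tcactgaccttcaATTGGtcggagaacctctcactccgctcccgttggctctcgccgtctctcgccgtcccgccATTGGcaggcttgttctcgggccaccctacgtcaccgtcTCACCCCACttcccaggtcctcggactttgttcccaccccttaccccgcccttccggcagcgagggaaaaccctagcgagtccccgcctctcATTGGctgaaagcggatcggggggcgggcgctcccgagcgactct
Mvk: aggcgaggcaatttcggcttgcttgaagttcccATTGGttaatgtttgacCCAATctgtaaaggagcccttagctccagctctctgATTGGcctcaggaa
Mvd: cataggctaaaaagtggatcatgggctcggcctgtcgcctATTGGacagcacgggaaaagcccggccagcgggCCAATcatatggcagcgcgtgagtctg
Sc5d: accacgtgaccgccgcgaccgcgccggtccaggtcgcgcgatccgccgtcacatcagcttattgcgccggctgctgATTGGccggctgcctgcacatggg
Fasn: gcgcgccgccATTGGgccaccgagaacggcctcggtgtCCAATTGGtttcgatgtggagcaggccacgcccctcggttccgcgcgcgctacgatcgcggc

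Per kilobase of exon, the most abundant member RNA over the 8 libraries was that of Scd2, a stearoyl-CoA desaturase, at 363 FPKM on average. Acly, which makes cytosolic acetyl-CoA from citrate, followed at 117 FPKM, and Scd1 at 104 FPKM. Fasn, the fatty acid synthase, had 64.6 FPKM, Hmgcs1 62.8 FPKM, Fads1 51.3 FPKM and Srebf2 50.6 FPKM. At the other end stood Acacb at 0.256 FPKM, Elovl7 at 0.908 FPKM and Tm7sf2 at 1.78 FPKM. Libraries of one line lay close together, with a median absolute log2 difference over the members of 0.0407 to 0.0709. Acacb was the exception in each line, with differences of 0.26 to 1.06 on the log2 scale. MC010 had the highest mean level of 14 members and the lowest of 2, while MC011 had the highest of 2 and the lowest of 25. MC654 had the highest of 5 and MC659 the highest of 11, and such counts were not taken over all genes. The difference between the lines labelled IRF8 KO was therefore described first, and the difference between labels after it.

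**Figure D2:**
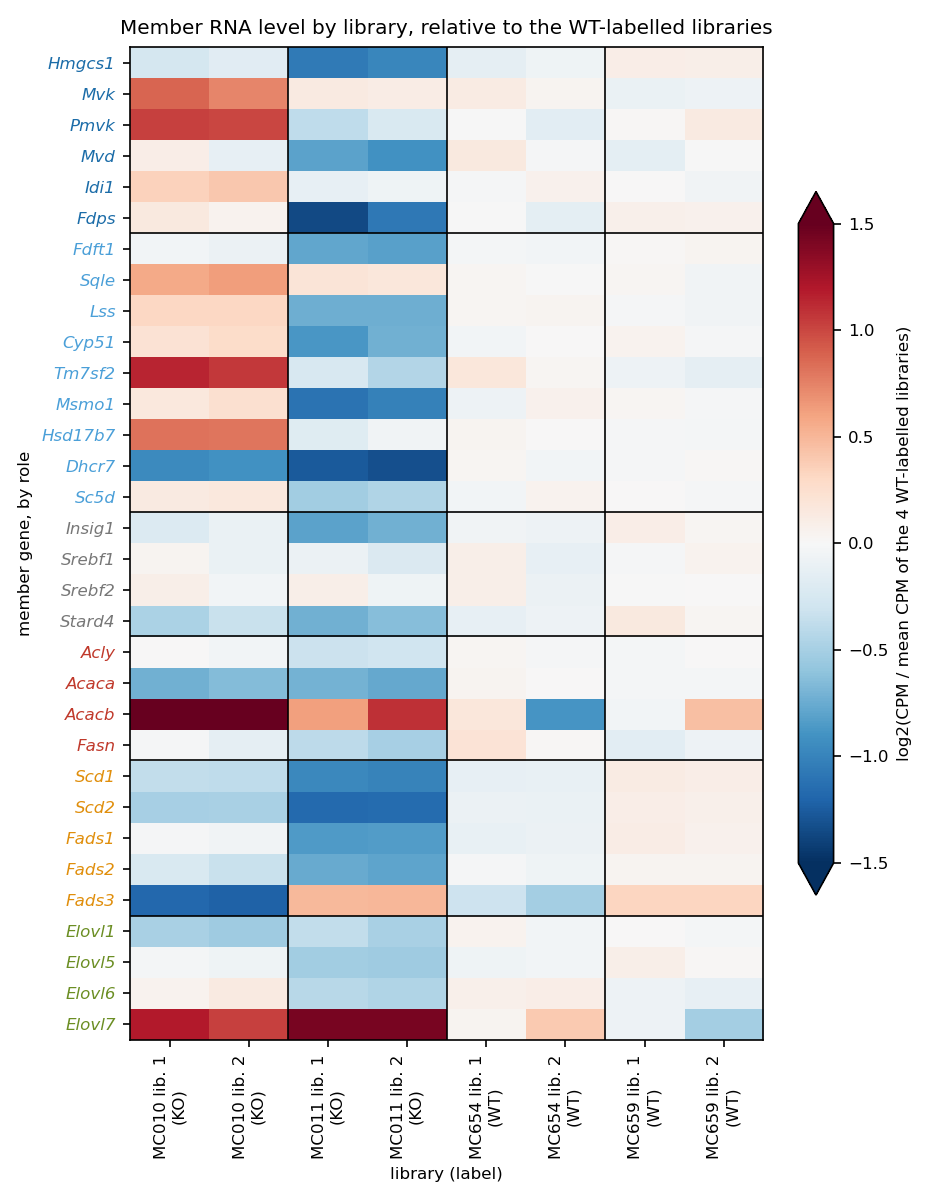
Each row is a member gene, grouped by role, and each column a library with its label. Color gives log2 of the CPM over the mean CPM of the 4 libraries labelled WT. The mevalonate and sterol enzymes are lower in MC011 than in MC010, and Dhcr7 is low in both lines.

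RNA of the sterol pathway was higher in MC010 than in MC011. All 15 mevalonate and sterol enzymes had more RNA in MC010, and all 15 had an adjusted p under 0.05 (edgeR quasi-likelihood test, Benjamini-Hochberg over 15153 genes), against 31.2% of all genes tested that were higher by that rule. Their median log2 difference was 0.84, a 1.80-fold higher level, and the median over all genes was 0.000890. Genes were called at an adjusted p under 0.05 and a log2 fold change beyond 0.59 in size. By this rule 12 of the 15 were called higher in MC010 and none lower, against 15.7% of all genes called higher and 16.0% called lower. Over all 32 members, 17 were called higher and 1 lower, and 27 had an adjusted p under 0.05 in either direction. By an unadjusted p under 0.05 the members were also 27, against 66.1% of all genes in either direction. Keratin genes differed between the same lines. Krt8 had 293 and 274 CPM in MC010 and 1.31 and 1.28 CPM in MC011, with 19.4 to 39.1 CPM in the lines labelled WT, and the 4 listed epithelial markers summed to 33.3 to 565 CPM under the IRF8 KO label and 114 to 129 CPM under the WT label. Krt18 was called higher in MC010 too (log2 3.07 ± 0.06). Epcam and Cdh1, the defining epithelial markers, stayed at or under 1.19 CPM and went the other way. They were called lower in MC010 than in MC011 (log2 -1.54 and -4.72, adjusted p = 0.00321 and 0.000172). Of the 4, Epcam alone was called between labels, higher under the IRF8 KO label (log2 2.20 ± 0.48, adjusted p = 0.00858). The part of these markers in the differences of the sterol genes was not tested.

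In the mevalonate steps, Hmgcs1, the HMG-CoA synthase, had 287 and 305 CPM in MC010, 165 and 175 CPM in MC011, 314 and 329 CPM (MC654) and 369 and 364 CPM (MC659). It was 1.74-fold higher in MC010 than in MC011 (log2 0.80 ± 0.05 SE, adjusted p = 9.31e-10). MC011 was thus the low line, and MC010 was closer to the lines labelled WT, though under all 4 of their libraries. Mvk, the mevalonate kinase, had 47.8 and 43.3 CPM in MC010 and 28.8 and 28.2 CPM in MC011. Its level in MC654 was 28.5 and 26.9 CPM and in MC659 24.4 and 24.8 CPM. For Mvk it was MC010 that stood apart, above the other 6 libraries, by a log2 difference to MC011 of 0.68 ± 0.06 (adjusted p = 2.05e-07). Pmvk, the phosphomevalonate kinase, was likewise highest in MC010, here with MC011 lowest, at 47.5 and 46.5 CPM in MC010, 17.8 and 19.8 CPM in MC011, 23.2 and 20.9 CPM (MC654) and 23.5 and 25.5 CPM (MC659). The difference between MC010 and MC011 was 2.5-fold (log2 1.32 ± 0.07, adjusted p = 4.35e-10).

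Mvd, the decarboxylase that yields isopentenyl diphosphate, had 59.5 and 51.3 CPM in MC010, 32 and 29.7 CPM in MC011, 61.7 and 55.0 CPM (MC654) and 50.4 and 55.7 CPM (MC659). MC010 overlapped the libraries labelled WT and MC011 did not. The log2 difference between MC010 and MC011 was 0.84 ± 0.08 (adjusted p = 2.01e-07). Fdps, which joins the isoprene units into farnesyl diphosphate, had 23.7 and 22.2 CPM in MC010, 8.37 and 10.1 CPM in MC011, 21.3 and 19.3 CPM (MC654) and 22.5 and 22.4 CPM (MC659). It too was low in MC011 alone, and its 2.49-fold difference between MC010 and MC011 (log2 1.32 ± 0.09, adjusted p = 4.97e-09) was among the larger ones. Idi1, the isomerase between these steps, ranged from 44.7 to 64.4 CPM over the 8 libraries, with a log2 difference of 0.47 ± 0.06 that did not pass the fold threshold.

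Among the enzymes from squalene onward, Fdft1, the squalene synthase, had 143 and 138 CPM in MC010, 85.5 and 84.0 CPM in MC011, 145 and 144 CPM (MC654) and 149 and 152 CPM (MC659) (log2 difference of MC010 to MC011 0.73 ± 0.04, adjusted p = 1.35e-09). Fdft1 shares exon bases with Ctsb on the opposite strand, which had 69282.6 counts per library on average against 11549.1 for Fdft1, and since it is not stated whether counting used the strand, reads of the pair may not be fully separated. Lss, which closes the ring of lanosterol, had 152 CPM in both libraries of MC010, 73.8 and 73.7 CPM in MC011, 125 and 126 CPM (MC654) and 121 and 118 CPM (MC659). The order was MC010, then the lines labelled WT, then MC011, and MC010 was 2.06-fold above MC011 (log2 1.04 ± 0.04, adjusted p = 1.58e-11). Cyp51, the lanosterol demethylase, had 245 and 253 CPM in MC010, 114 and 127 CPM in MC011, 204 and 211 CPM (MC654) and 218 and 207 CPM (MC659), also a 2.06-fold difference (log2 1.04 ± 0.05, adjusted p = 1.55e-10). It overlaps Akap9 on the opposite strand.

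Tm7sf2, a sterol reductase that acts after Cyp51, gave the largest difference of the 15 enzymes. It had 14.0 and 13.3 CPM in MC010, 5.39 and 4.68 CPM in MC011, 7.17 and 6.48 CPM (MC654) and 6.02 and 5.78 CPM (MC659). MC010 was 2.71-fold above MC011 (log2 1.44 ± 0.11, adjusted p = 1.45e-08), and its gene model shares exons with Vps51 on the same strand. Msmo1, the methylsterol monooxygenase, had 196 and 207 CPM in MC010, 81.4 and 87.0 CPM in MC011, 167 and 183 CPM (MC654) and 179 and 174 CPM (MC659). Here MC011 lay well below every other library, 2.39-fold under MC010 (log2 difference of MC010 to MC011 1.26 ± 0.06, adjusted p = 2.41e-11). Hsd17b7, a reductase of the same demethylation steps, had 65.3 and 65.1 CPM in MC010, 32.8 and 35.8 CPM in MC011, 38.1 and 37.3 CPM (MC654) and 36.7 and 36.5 CPM (MC659). MC010 was the line apart, by 1.90-fold over MC011 (log2 0.93 ± 0.06, adjusted p = 1.46e-09). Sc5d, the lathosterol oxidase, had 96.6 and 98.2 CPM in MC010, 61.4 and 64.5 CPM in MC011, 85.9 and 91.6 CPM (MC654) and 88.7 and 87.2 CPM (MC659), with a log2 difference of 0.63 ± 0.05 (adjusted p = 3.26e-08). Sqle, the squalene epoxidase, ranged from 143 to 229 CPM and Dhcr7 from 30.5 to 78.1 CPM, and their differences between MC010 and MC011, 0.42 ± 0.05 and 0.36 ± 0.06 on the log2 scale, did not pass the fold threshold.

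**Figure D3:**
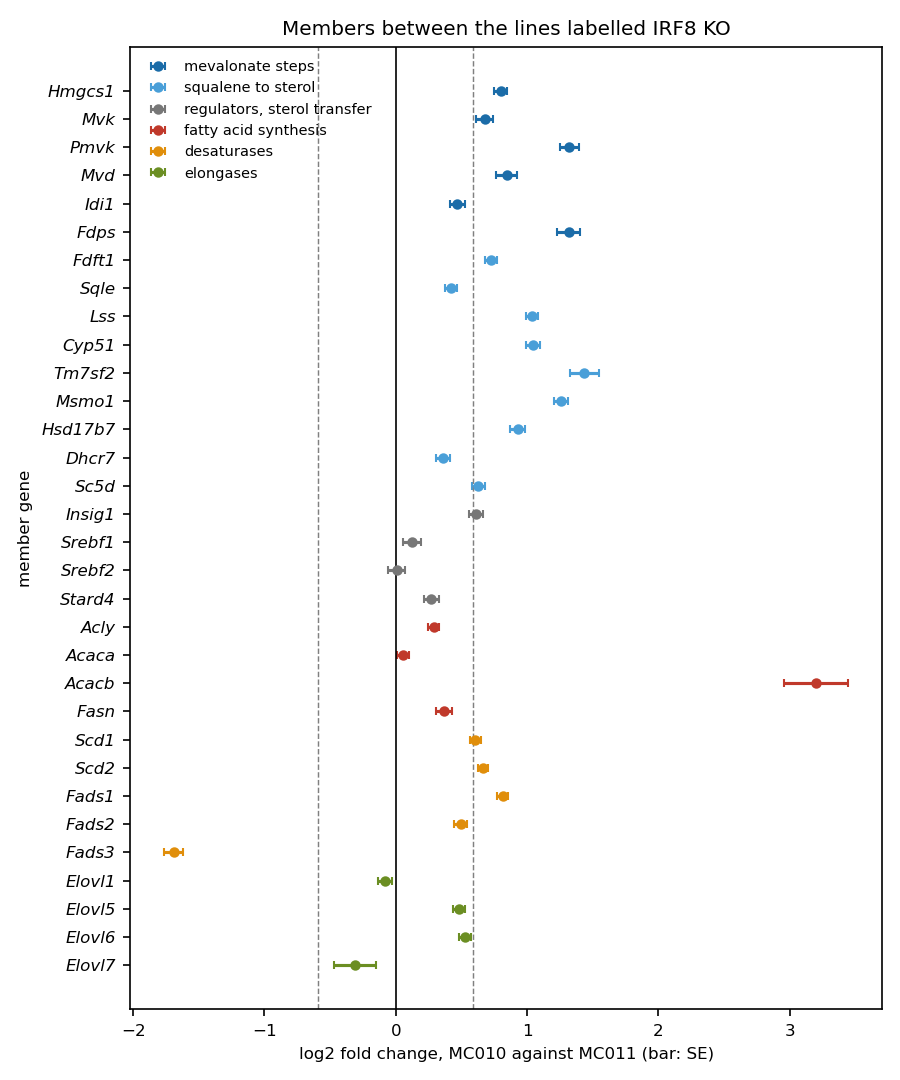
Points give the log2 fold change of each member between MC010 and MC011 with its SE, colored by role, and dashed lines mark the fold threshold. All 15 mevalonate and sterol enzymes lie to the right of 0, Srebf2 lies at 0.01 and Fads3 at -1.69.

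Of the 4 regulator and transfer genes, Insig1 was called between MC010 and MC011. Srebf2, the gene of SREBP2, had 341 to 385 CPM over the 8 libraries with a log2 difference between MC010 and MC011 of 0.01 ± 0.06 (adjusted p = 0.926). Srebf1 had 122 to 151 CPM and a difference of 0.13 ± 0.07 (adjusted p = 0.127), and it overlaps Rai1 on the opposite strand. Counts are per gene, so the Srebf1 start sites and the cleavage of the proteins were not measured. Insig1, the sterol-responsive retention protein, had 95.0 and 103 CPM in MC010, 63.1 and 66.5 CPM in MC011, 105 and 104 CPM (MC654) and 117 and 112 CPM (MC659). It was called higher in MC010 than in MC011 (log2 0.61 ± 0.05, adjusted p = 7.34e-08), but at 0.57 without MC010 library 2 and 0.58 without MC011 library 1 it was under the fold threshold. Stard4, a cholesterol transfer protein, had 55.6 to 72.5 CPM under the IRF8 KO label and 84.2 to 102 CPM under the WT label, and its log2 difference between MC010 and MC011 was 0.27 ± 0.06.

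The fatty acid genes differed less between these lines, except for Acacb and the desaturases. Acly ranged from 521 to 668 CPM, Fasn from 543 to 883 CPM and Acaca, the acetyl-CoA carboxylase of the cytosol, from 138 to 243 CPM. Their log2 differences between MC010 and MC011 were 0.29 ± 0.04, 0.37 ± 0.06 and 0.05 ± 0.05, none past the fold threshold. Among the desaturases, Scd1 had 479 and 476 CPM in MC010 and 318 and 310 CPM in MC011, with 569 and 573 CPM (MC654) and 672 and 661 CPM (MC659). Scd2, the most abundant of them, had 1776 and 1793 CPM in MC010 and 1124 and 1126 CPM in MC011, with 2365 and 2355 CPM (MC654) and 2688 and 2651 CPM (MC659). Both genes fell into the same order of lines, from MC659 over MC654 and MC010 down to MC011, with no overlap between lines. MC010 was above MC011 by 0.61 ± 0.04 for Scd1 (adjusted p = 3.17e-09) and by 0.67 ± 0.04 for Scd2 (adjusted p = 5.81e-10) on the log2 scale, and without MC011 library 2 Scd1, at 0.59, was just under the fold threshold. Scd1 and Scd2 are close relatives, and how reads that match both were counted is not stated, so their split is uncertain.

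The Fads genes lie side by side on chromosome 19, between positions 10041548 and 10196870 (GRCm38), and encode desaturases of polyunsaturated fatty acids or, for Fads3, of other lipids. Fads1 had 277 and 269 CPM in MC010, 154 and 156 CPM in MC011, 259 and 263 CPM (MC654) and 302 and 293 CPM (MC659), a log2 difference of MC010 to MC011 of 0.81 ± 0.04 (adjusted p = 1.82e-10). Fads2 ranged from 69.5 to 124 CPM, with a difference of 0.50 ± 0.05 in the same direction that did not pass the fold threshold. Fads3 went the other way. It had 13.4 and 13.1 CPM in MC010, 42.7 and 43.1 CPM in MC011, 24.5 and 21.4 CPM (MC654) and 37.9 and 38.0 CPM (MC659), so that MC010 was lowest and MC011 highest. Its log2 difference between MC010 and MC011 was -1.69 ± 0.07 (adjusted p = 1.29e-11), the only member called lower. Of the elongases, Elovl5 ranged from 91.4 to 141 CPM and Elovl6 from 121 to 182 CPM, with log2 differences of 0.49 ± 0.05 and 0.53 ± 0.05 under the fold threshold, and Elovl1 and Elovl7 had -0.08 ± 0.05 and -0.31 ± 0.16 (adjusted p = 0.203 and 0.104).

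The lines labelled WT were compared in the same way. No member was called higher in MC654 than in MC659 and 1 was called lower, against 1.24% and 3.71% of all genes, and 8 of 32 had an adjusted p under 0.05, against 14.5% of all genes by that rule in either direction. The median log2 difference was -0.01, as over all genes (-0.00297). Without MC654 library 1 the count of called members was 2 instead of 1, since Elovl7 was then called higher at 0.67 (adjusted p = 0.0424). The called member was Fads3, which was lower in MC654 by 0.73 on the log2 scale (SE 0.07, adjusted p = 3.03e-06). All 5 desaturases were lower in MC654, and Scd1, Scd2 and Fads1 also had an adjusted p under 0.05 (0.00133, 0.00506 and 0.00658) without passing the fold threshold. Among the 15 mevalonate and sterol enzymes, Hmgcs1 alone had an adjusted p under 0.05 (log2 -0.19 ± 0.05, adjusted p = 0.0125), and their differences ran from -0.19 to 0.21.

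Each line labelled IRF8 KO was then set against the lines labelled WT. These comparisons share the WT libraries, so their values are given side by side. In MC010, 7 members were called higher and 3 lower, against 19.7% and 17.4% of all genes. In MC011, 2 were called higher and 15 lower, against 17.3% and 13.4%. The median over the 15 mevalonate and sterol enzymes was 0.25 in MC010 and -0.73 in MC011, beside 0.00172 and 0.00446 over all genes. Mvk, Pmvk, Sqle, Tm7sf2 and Hsd17b7 were called higher in MC010, by log2 0.80, 1.02, 0.60, 1.11 and 0.81. In MC011 these genes stood at 0.13, -0.31, 0.18, -0.33 and -0.12, and none was called. Conversely, Hmgcs1, Mvd, Fdps, Fdft1, Lss, Cyp51 and Msmo1 were called lower in MC011, by log2 fold changes of -1.01, -0.85, -1.21, -0.80, -0.73, -0.80 and -1.06, and stood at -0.22, -0.0042, 0.11, -0.07, 0.31, 0.25 and 0.20 in MC010. The sterol enzymes were thus partly higher in MC010 and partly lower in MC011. Dhcr7 was called lower in both lines, as was Acaca, and Acacb and Elovl7 were called higher in both. Calls lost with one library left out were that of Sqle in MC010, at 0.58 without MC010 library 2 or MC659 library 2, and that of Acacb in MC011, at 0.64 without MC011 library 2 (adjusted p = 0.104). Summed over the 9 enzymes from squalene onward, the level was 1170 and 1196 CPM in MC010, 655 and 673 CPM in MC011 and 999.9 to 1023 CPM in the libraries labelled WT.

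**Figure D4:**
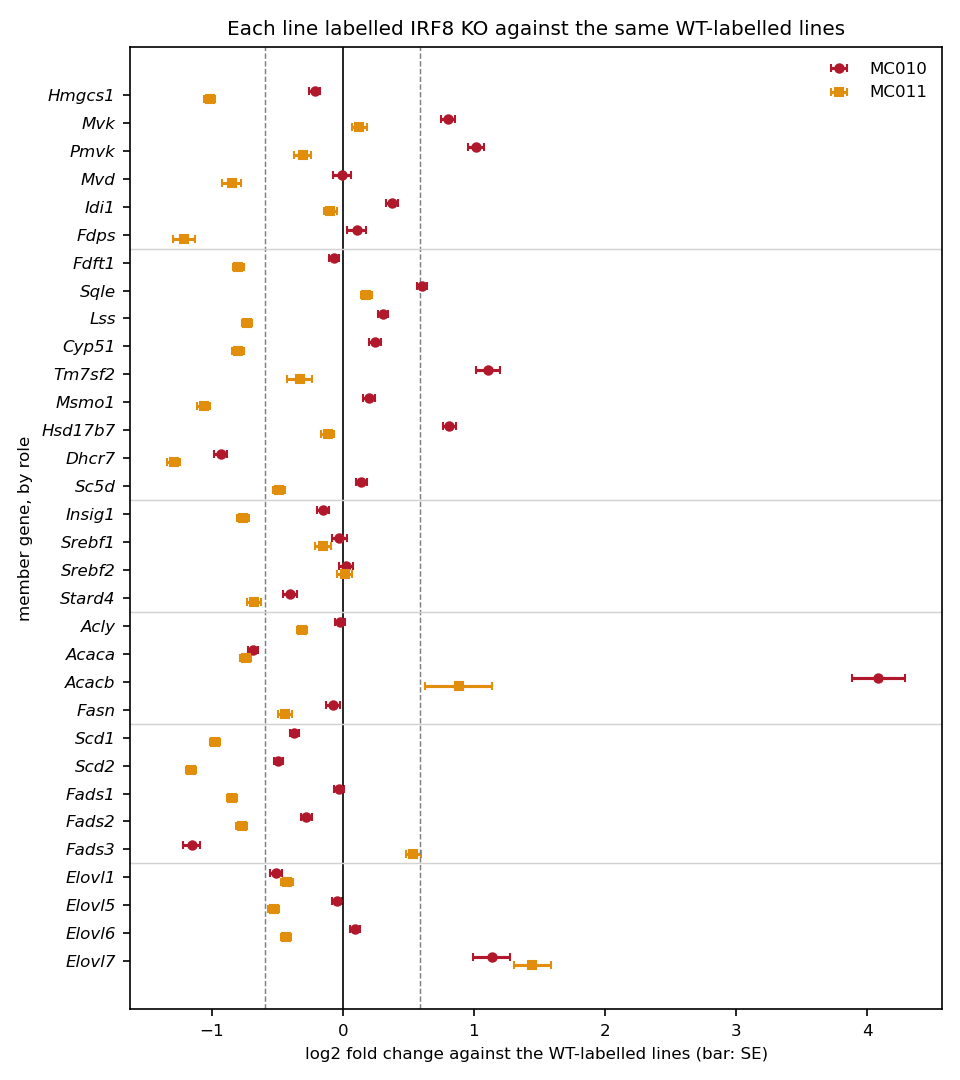
Points give the log2 fold change of each member against the lines labelled WT with its SE, circles for MC010 and squares for MC011, and dashed lines mark the fold threshold. Acaca and Elovl7 lie at similar values in both lines, while Pmvk, Lss, Cyp51, Tm7sf2, Msmo1, Sc5d and Fads3 lie on opposite sides of 0.

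The labels were compared next, and the members' counts are read against the shares of all genes. Of 32 members, 2 were called higher under the IRF8 KO label and 4 lower, against 13.7% and 8.72% of all genes, and 10 had an adjusted p under 0.05, against 37.5% of all genes. The median log2 fold change was -0.22, with 0.02 over all genes. The libraries of the labels did not overlap for 13 members, 3 with the IRF8 KO libraries above and 10 with them below, against 22.1% and 20.5% of all genes. Of the 15 mevalonate and sterol enzymes, 14 were not called. With the counts summed per line, which leaves 2 values against 2, none of the 32 members and none of the 15153 genes was called by edgeR, and 6 members had an unadjusted p under 0.05, against 22.2% of all genes. Without line MC010 the count was 16, of which 15 were lower, against 16.6% of all genes called higher and 12.8% lower. Without line MC011 it was 10, of which 7 were higher, against 19.7% and 16.6%. Without line MC659 it was 3, against 7.27% and 4.29%. Dhcr7, Acaca and Elovl7 were called with each library and each line left out in turn. With one library left out, Hmgcs1 was also called lower, at -0.68 and -0.72 without MC010 library 1 and 2, and Mvk higher, at 0.60 and 0.61 without MC011 library 1 and 2. Stard4 and Fads2 were called lower, both at -0.61, without MC010 library 2 and library 1, respectively.

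Dhcr7, the reductase of the last step to cholesterol on one branch of the pathway, was the only one of the 15 mevalonate and sterol enzymes called between labels. It had 39.3 and 40.8 CPM in MC010, 31.8 and 30.5 CPM in MC011, 78.1 and 74.2 CPM (MC654) and 75.4 and 77.5 CPM (MC659). Its mean was 35.6 ± 5.17 CPM (SD, n = 4 libraries) under the IRF8 KO label and 76.3 ± 1.81 CPM (n = 4) under the WT label, a log2 fold change of -1.10 ± 0.10 (edgeR adjusted p = 0.000157). The gene lies at chr7:143823145-143848410 (GRCm38, plus strand). Acaca, which commits acetyl-CoA to fatty acid synthesis by making malonyl-CoA, had 143 and 150 CPM in MC010, 144 and 138 CPM in MC011, 243 and 238 CPM (MC654) and 231 CPM in each MC659 library. Its lines were nearly equal within a label, and its log2 fold change was -0.71 ± 0.05 (adjusted p = 3.06e-05). Acaca lies at chr11:84129672-84401651 on the plus strand.

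Acacb, the carboxylase of the mitochondrial membrane whose malonyl-CoA restrains fatty acid oxidation, went the other way and rested mostly on one line. It had 8.73 and 7.32 CPM in MC010, 0.737 and 1.03 CPM in MC011, 0.539 and 0.259 CPM (MC654) and 0.465 and 0.656 CPM (MC659). The log2 fold change between labels was 3.21 ± 0.86 (adjusted p = 0.0199). Without line MC010 it was 0.85 (adjusted p = 0.0726), and the call was also lost without either library of MC654 (adjusted p = 0.0535 and 0.0603), without MC659 library 1 (0.0588), and in limma-voom with line as random block (0.259). MC010 was 9.20-fold above MC011 (log2 3.20 ± 0.24, adjusted p = 1.53e-08). Elovl7, an elongase of long fatty acids, had 4.86 and 4.34 CPM in MC010, 5.73 and 5.71 CPM in MC011, 2.19 and 2.80 CPM (MC654) and 2.03 and 1.5 CPM (MC659), so that it was higher in both lines labelled IRF8 KO. Its log2 fold change was 1.28 ± 0.22 (adjusted p = 0.00271).

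The stearoyl-CoA desaturases, which make oleate and palmitoleate, were both lower under the IRF8 KO label. Scd1 had 396 ± 94.8 CPM (SD, n = 4) under it and 619 ± 55.1 CPM (n = 4) under the WT label, a log2 fold change of -0.64 ± 0.17 (adjusted p = 0.0173). Without MC011 library 1 or 2 the value was -0.56 or -0.54, under the fold threshold. Scd2 had 1455 ± 381 CPM (n = 4) and 2515 ± 179 CPM (n = 4), a log2 fold change of -0.79 ± 0.18 (adjusted p = 0.00955), and without line MC011 it was -0.50. Neither was called without line MC654 (adjusted p = 0.0717 for Scd1 and 0.0609 for Scd2) or without line MC659 (0.158 and 0.105). The other members with an adjusted p under 0.05 did not pass the fold threshold. They were Sqle at 0.41 ± 0.11, Stard4 at -0.54 ± 0.10, Fads2 at -0.50 ± 0.13 and Elovl1 at -0.47 ± 0.05 on the log2 scale. Elovl1 shares exon bases with Cdc20 on the opposite strand.

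**Figure D5:**
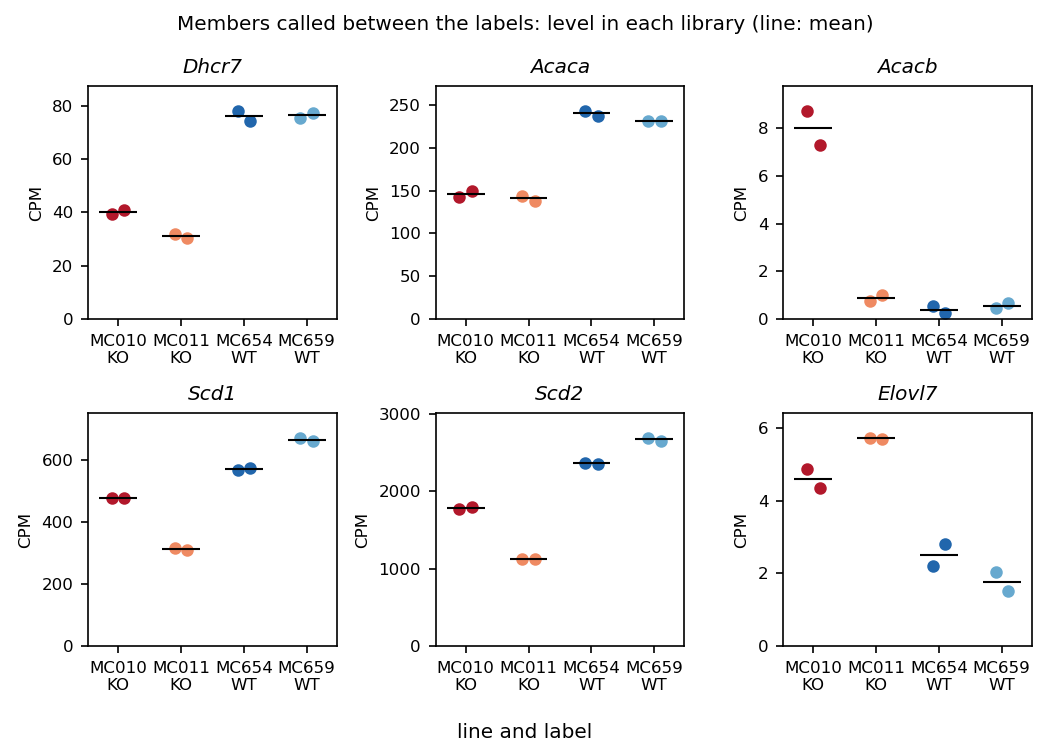
Points give the CPM of each library and horizontal lines the mean of each line for the 6 members called between labels. For Acaca and Dhcr7 both lines labelled IRF8 KO lie low, for Scd1 and Scd2 MC011 lies below MC010, and for Acacb MC010 alone lies high.

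Other genes of sterol and fatty acid metabolism were taken from a list of 45, of which 38 were in the table and 35 were tested. Between the labels 3 were called higher and 1 lower, against 13.7% and 8.72% of all genes, and 10 had an adjusted p under 0.05, against 37.5% of all genes. Abca1, the cholesterol exporter, had 278 and 287 CPM in MC010, 93.4 and 91.8 CPM in MC011, 7.57 and 7.70 CPM (MC654) and 12.2 and 13.6 CPM (MC659). Its log2 fold change was 4.19 ± 0.50 (adjusted p = 0.000507), and MC010 and MC011 were both far above the lines labelled WT. Abcg1, another sterol exporter, was at 0.531 to 2.25 CPM under the IRF8 KO label and 0.180 to 0.499 CPM under the WT label (log2 2.20 ± 0.53, adjusted p = 0.0129). Me1, the malic enzyme that supplies NADPH, was at 110 to 153 CPM and 77.7 to 81.4 CPM (log2 0.76 ± 0.11, adjusted p = 0.00143). Cyp27a1, which oxidizes the cholesterol side chain, was at 0.0952 to 0.290 CPM and 0.611 to 1.47 CPM (log2 -2.75 ± 0.49, adjusted p = 0.00325). Fabp5, a fatty acid binding protein, and Soat1, which esterifies cholesterol, both had a log2 fold change of -0.56 (adjusted p = 0.0124 and 0.00817), under the fold threshold.

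Between MC010 and MC011, 8 of these 35 genes were called higher and 4 lower, against 15.7% and 16.0% of all genes, with a median log2 difference of 0.27 beside 0.000890 over all genes.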

How the data were processed

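The RNA came from 4 mouse fibrosarcoma lines with 2 libraries each. The submitters' processing notes name STAR 2.7.3a, HTSeq 0.11.2 and DESeq2 with mm10/GRCm38.p6, and the study's methods name older releases of the first pair. Libraries were made with a stranded mRNA kit, and whether counting used the strand is not given in the sources used here. In the deposited table the authors give raw counts per gene and a signal, which is each count over its library's size factor. The authors' comparison columns hold p-values (raw and adjusted), a Wald score and a log2 fold change plus its error, and none was used.

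Counts were analysed with edgeR 4.0.16 in R 4.3.3 (filterByExpr by label, TMM, robust quasi-likelihood test, Benjamini-Hochberg adjustment over all 15153 genes tested), once by label with no other term and once with one group per line. Standard errors came from the log2 fold change and the F statistic. CPM used TMM-scaled library sizes, and FPKM divided them by the merged exon length in GENCODE M21. Identifiers of all 32 members, and coordinates of 26, matched GENCODE M21, and coordinates printed are those of the table. The fits were tested on simulated counts. These held no spread between lines of a label, so they could not test how the fit by label deals with it. The floor of 3 counts covers counting error only, and standard errors carry the spread between libraries. Libraries of one line differed beyond sampling noise and were kept apart.

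The members and gene lists were chosen with earlier results of these data known. All members were named, each library's value being given for those called between labels, between MC010 and MC011 or between MC654 and MC659. Of the other pathway genes, the 3 largest log2 fold changes in each direction with an adjusted p under 0.05 were named. Of that list, Ebp, Nsdhl, Idi2, Mbtps2, Thrsp, Mid1ip1 and Mlxipl were not analysed here, and Ch25h, Elovl2 and Elovl3 did not pass the filter. Alternatives were DESeq2 1.42.0, no filter, limma-voom (limma 3.58.1) taking line as random block, upper-quartile scaling, the library number as a block, counts summed per line, each library or line left out and no fold threshold. For single members and for the 15 sterol pathway enzymes between MC010 and MC011 they were added after seeing the data. Protein sequences were not used here. One item of the other pathway list is not reported here and is part of the counts alone.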

Additional observations from a re-analysis of the deposited data

Results flagged for a closer look

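Members were listed here when MC010 and MC011 differed from the lines labelled WT in opposite directions, each with an edgeR adjusted p under 0.05, and the difference between MC010 and MC011 was itself called. Pmvk, Lss, Cyp51, Tm7sf2, Msmo1 and Sc5d met this, with log2 differences of MC010 over MC011 of 1.32, 1.04, 1.04, 1.44, 1.26 and 0.63. All 6 were above the lines labelled WT in MC010 and below them in MC011. Fads3 met it the other way, with a difference of -1.69.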

How the results depend on the processing

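Between the labels, the count of 6 called members was 5 to 8 with one library left out and 6 with DESeq2, with no filter and with upper-quartile scaling. In limma-voom with line as random block it was 5, against 6.91% of all genes called higher and 5.54% lower. It was 0 with counts summed per line, 16 without line MC010, 10 without line MC011, 3 without line MC659 and 10 with no fold threshold. Without line MC010 the log2 fold change turned to -0.33 for Pmvk, -0.11 for Idi1, -0.35 for Tm7sf2, -0.14 for Hsd17b7, -0.0048 for Srebf2 and 0.47 for Fads3. Without line MC011 it turned to 0.10 for Fdps, 0.30 for Lss, 0.24 for Cyp51, 0.19 for Msmo1, 0.13 for Sc5d and 0.084 for Elovl6. Without line MC659 that of Fads3 was 0.28, and with upper-quartile scaling that of Srebf2 was -0.0027. With one library left out, Lss ranged from -0.30 to 0.037, Srebf2 from -0.013 to 0.046 and Fads3 from -0.40 to 0.11 between labels, and Srebf2 from -0.075 to 0.099 between MC010 and MC011. None of these genes was called between labels.

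The 18 members called between MC010 and MC011 were 17 to 18 in number with one library left out, and the 12 sterol pathway enzymes among them were 12 under each of DESeq2, no filter, upper-quartile scaling, the block and each library left out. Between MC654 and MC659 the count was 1 to 2 with one library left out and 8 with no fold threshold. With no fold threshold 23 members were called in MC010 and 28 in MC011 against the lines labelled WT. By an unadjusted edgeR p under 0.05 the members were 23 and 30, against 72.4% and 68% of all genes. The other pathway genes called between labels were 4 of 35 in the reported fit. With DESeq2 they were 8, against 15.3% of all genes called higher and 10% lower. With summed counts 0 were called, as over all genes. Without line MC010 the count was 13, against 16.6% and 12.8%, and without line MC011 it was 8, against 19.7% and 16.6%. With no fold threshold it was 10, against 37.5% of all genes. The cause of these shifts was not tested.

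The library numbers do not pair the lines, since the deviations of same-numbered libraries correlated at -0.03 to 0.06 over 6 pairs of lines. With the library number as a block the counts were 6 between labels, 18 between MC010 and MC011, 1 between MC654 and MC659, 10 and 17 for MC010 and MC011 against the lines labelled WT, and 4 of the other pathway genes. Acacb, at under 1 CPM in 5 libraries, is the member most limited by depth.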
